A study of Homo sapiens with 6 samples.

Results

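The genes described here encode the subunits of the mitochondrial respiratory chain and ATP synthase that are made from nuclear DNA. They were chosen by gene symbol. Rows of the count table were taken when the transcript ID belonged to a protein-coding gene whose symbol begins NDUFA, NDUFB, NDUFC, NDUFS, NDUFV, UQCR, COX4 to COX8 or ATP5, without the NDUFAF assembly factors, and SDHA, SDHB, SDHC, SDHD and CYC1 were added. GENCODE release 29 holds 92 such symbols, of which 71 had a row among the 22279 transcript IDs of the table, and the other 21 were not analysed here. Among the 21 are SDHC, UQCRFS1, COX5A, COX5B, COX7C and ATP5PB. The 71 members comprise 29 of complex I, 3 of complex II, 7 of complex III, 15 of complex IV and 17 of complex V. NDUFA4, named as a complex I subunit but now assigned to complex IV, and its paralog NDUFA4L2 were placed with complex IV. ATP5S, which carries an ATP synthase symbol in GENCODE but is not one of the enzyme's structural subunits, stayed with complex V.

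RNA-seq was carried out on LNCaP, an established androgen-sensitive prostate cancer cell line. There were 6 libraries: 3 of cells whose RB was targeted by a short hairpin RNA (named shRB) and 3 of cells that carried the control hairpin (named shCON). Both groups were held for 72 h in the treatment abbreviated CDT, which the labels file under cell cycle arrest and the series describes as deficient in hormone. The labels name 1 hairpin per group and say neither whether the cells were a pool or a clone nor whether replicates were separate cultures, so the p-values measure the spread between these libraries, which may be technical, and an effect of RB loss cannot be told apart from an effect of 1 hairpin or cell population.

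The respiratory chain passes electrons from NADH (complex I) and succinate (complex II, which is also an enzyme of the TCA cycle) through ubiquinone to complex III, then through cytochrome c to complex IV, which reduces oxygen. Complexes I, III and IV pump protons across the inner mitochondrial membrane, and complex V, the ATP synthase, uses the returning protons to make ATP. Each of these except complex II also has subunits made from mitochondrial DNA. The table held 0 rows of the mitochondrial chromosome, so those partners were not analysed here.

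Library totals were 9780579 to 10898768 counts in shRB and 6115310 to 20091488 counts in shCON. RB1 mRNA (ENST00000267163) was 5.01 ± 1.06 CPM in shRB and 54.6 ± 1.93 CPM in shCON (SD, n = 3 each; CPM is the count scaled by the TMM-adjusted library total), so 9.18% of the control level was left. In bulk RNA, fewer cells that express a gene and less of its RNA per cell cannot be told apart. The 8 prostate luminal markers summed to 3594 to 3664 CPM in shRB libraries and 3671 to 3894 CPM in shCON libraries, with 4 of them higher and 2 lower. The 3 basal markers summed to at most 0.106 and 0.638 CPM and the 4 leukocyte markers to at most 0.364 and 0.653 CPM, in shRB and shCON libraries, with KRT5, PTPRC and CD3E at 0 in every library, as were the endothelial markers PECAM1 and CDH5. The 4 stromal markers in the table summed to 12.3 to 15.9 CPM in shRB and 16.6 to 20.3 CPM in shCON, nearly all COL1A1, with COL1A2 at 0. Libraries of the same group differed in their trend with GC content. In shRB 2 the deviation from the group mean increased with transcript GC content (Spearman's rho 0.69 across 11674 genes, against −0.50 in shRB 1 and −0.54 in shRB 3), and among shCON libraries the same held for shCON 2 (0.52), against −0.51 in shCON 1 and −0.09 in shCON 3.

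Most respiratory chain transcripts did not pass the test between RB-depleted and control cells, and the changes that passed were small, with 1 exception. Of 71 members, 65 had enough counts to be tested, and 10 of these rose in shRB, 3 fell and the remaining 52 missed the threshold (edgeR quasi-likelihood test, Benjamini-Hochberg adjusted p under 0.05 over all 11712 genes tested). The share that rose was 15.4%, against 12.8% of all tested genes, and the share that fell was 4.62%, against 12.5% of all tested genes. In this fit the share of members that rose was near the background, and how far it stood from it depended on the fit. With an offset for transcript length 24.6% of members rose, against 13.8% of all tested genes, and without shCON 1 6.15% rose, against 7.31%. The median log2 fold change was 0.09 over the 65 members and −0.01 over all tested genes, and 49 of the 65 members (75.4%) had a value above 0, against 49% of all tested genes. Large changes were rare: 1 member (1.54%) differed by at least 1.5-fold, against 11.1% of all tested genes. The median SE was 0.081 over members and 0.109 over all tested genes, so these 2 shares rest on unlike precision. In 17 members the shRB libraries all lay above the shCON libraries, and in 5 they all lay below. The background for these counts was 21% of all tested genes above and 20.2% below.

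**Figure D1:**
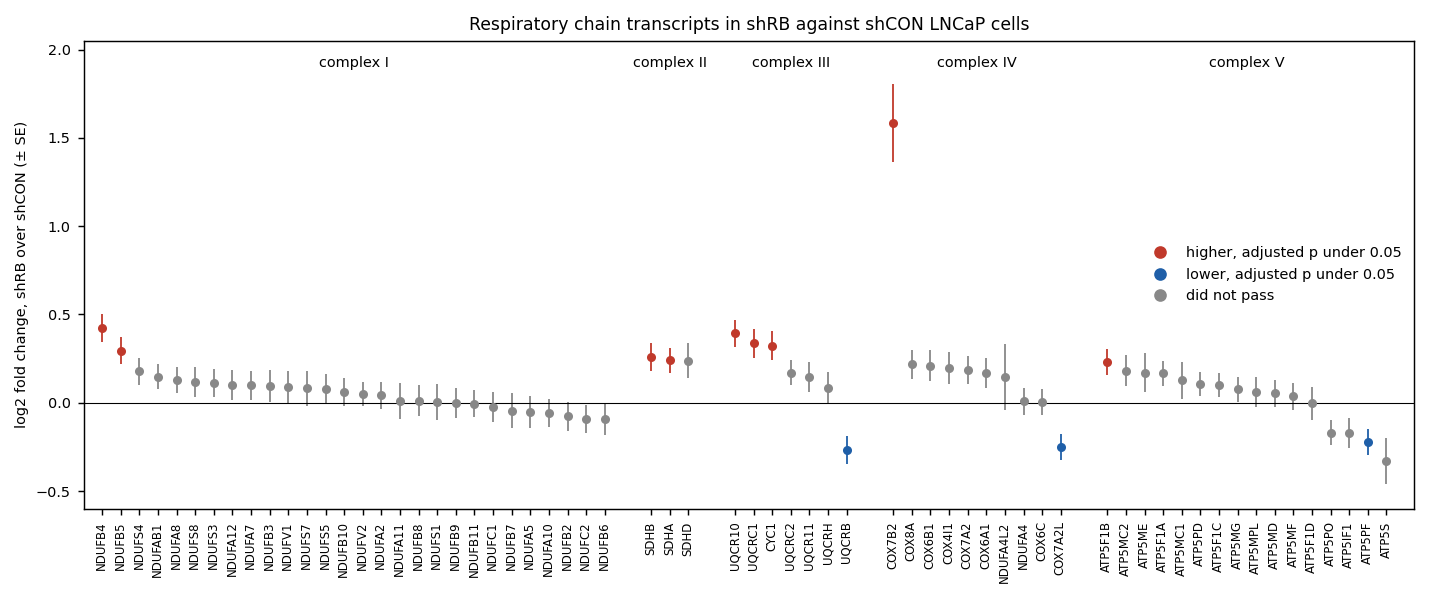
Log2 fold change of 64 tested members, shRB over shCON, with its standard error, ordered within complexes I to V. Red points rose, blue points fell and grey points did not pass. Apart from COX7B2 at 1.58, values lie between −0.33 and 0.42.

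By complex, the test called 2 of 3 members of complex II (66.7%) and 3 of 7 of complex III (42.9%) higher. It called 3 of 29 of complex I (10.3%), 1 of 10 of complex IV (10%) and 1 of 16 of complex V (6.25%) higher. Of all tested genes 12.8% were higher and 12.5% lower. Lower calls numbered 0 in complexes I and II and 1 each in complexes III, IV and V (14.3%, 10% and 6.25%). Medians of the log2 fold change were 0.06 for complex I, 0.24 for complex II, 0.17 for complex III, 0.18 for complex IV and 0.07 for complex V. No test of a difference between complexes was made, and the order of these counts depended on the fit. With the length offset 6 of 10 members of complex IV rose and 3 of 7 of complex III, against 13.8% of all tested genes. In 4 of the 6 fits that left out 1 library 0 members of complex II rose (all but those without shRB 2 and without shRB 3). In libraries shRB 1, shRB 2 and shRB 3 the median deviation of the 65 members from the shCON mean was 0.096, 0.192 and −0.027 (log2 CPM), against −0.024, 0.016 and 0.008 in shCON 1, shCON 2 and shCON 3. The library shRB 3 lay below all 3 shCON libraries for this median, so the groups overlapped. In the medians of complexes II and III the shRB libraries all lay above the shCON libraries. The summed CPM of all members was 16526 to 18927 in shRB libraries and 15898 to 16502 in shCON libraries, with no overlap. Sums did not overlap for complexes II, III and V either, but did for complexes I and IV. The members took 1.78%, 1.83% and 1.67% of the counts in shRB 1 to 3, against 1.61%, 1.65% and 1.63% in shCON 1 to 3.

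**Figure D2:**
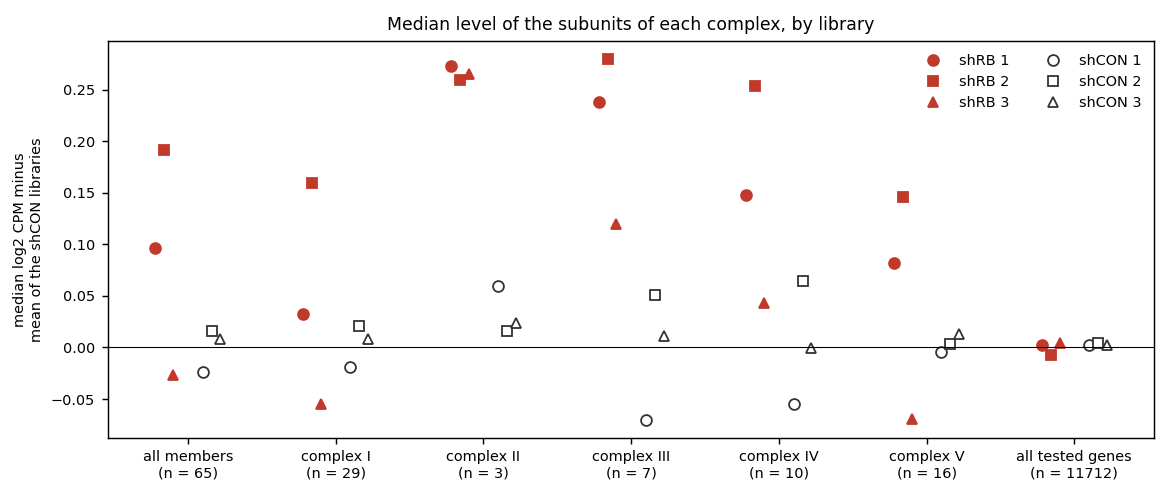
Median over members of log2 CPM minus the mean of the shCON libraries, for each library (filled red shRB, open shCON) and each complex, with all tested genes at the right. The shRB points of complex II lie between 0.259 and 0.273, while those of complex I spread from −0.055 to 0.16.

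Within the shRB group, 67.7% of the members were highest in shRB 2, against 43.5% of all tested genes. Transcripts of the members had a median length of 930 nt, against 2967 nt over all tested genes, and a median GC content of 50.1%, against 49.7%. Length also moved with the library: deviations of shRB 2 had a rho of −0.32 with transcript length, against 0.09 in shRB 1 and 0.39 in shRB 3. Without shRB 2, 14 members rose (21.5%, against 17.5% of all tested genes) and 6 fell (9.23%, against 16.5%), and the 13 called members all passed again. With an offset that removes the GC trend of each library 17 members rose (26.2%, against 19.8% of all tested genes) and 4 fell (6.15%, against 19.3%). With an offset for length 16 members rose (24.6%, against 13.8%) and 3 fell (4.62%, against 13.1%).

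Nuclear respiratory factor 1, encoded by NRF1, is a transcription factor long known to bind promoters of respiratory chain genes. RefSeq promoter windows (build GRCh38.p14, 250 bases before to 50 after the start) matched 52 of the 71 members. Its motif, a palindrome-like run of 10 bases with 1 free base, searched on both strands with each position counted once, was in 13 of the 52 (25%), against 6.28% of 27305 promoters of all genes and 12.4% of 9036 promoters of tested genes. Of the 10 members that rose, 6 had a window and 4 of these held the motif, and of the 2 with a window that fell, 0 did. Members that did not pass held it too: NDUFA8, NDUFA11, NDUFA12, SDHD, UQCR11, ATP5F1C, ATP5ME and ATP5PO. Of these, ATP5PO was lower in all shRB libraries. Whether the motif goes with the change was not tested. The 4 that rose and held it are shown because they are the called members with a match. Each line gives 30 bases, 5′ to 3′ on the gene's strand, with the motif in capitals.
NDUFB4, chr3:120596167-120596196, plus strand, match starting 159 bases before the start: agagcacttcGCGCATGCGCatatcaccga
SDHA, chr5:218242-218271, plus strand, match starting 68 bases before the start: ccggcgtggtGCGCAGGCGCggtatccccc
UQCR10, chr22:29767351-29767380, plus strand, match starting 8 bases before the start: gtcggccccaGCGCAGGCGCggtggcgcga
UQCRC1, chr3:48609674-48609703, minus strand, match starting 47 bases before the start: gtacggtactGCGCCTGCGCcgcgaccgcc
SDHA held 4 matches, at 166, 117, 68 and 19 bases before the start, and NDUFB4 held 3.

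Other motifs were rarer. CCGGAAGT, bound by ETS factors such as GABPA, was in 6 of the 52 windows (11.5%), against 8.93% of promoters of tested genes. AAGATGGCG, a YY1 motif, was in 6 (11.5%), against 4.19%. TTTNGCGC, a motif of the E2F factors that RB binds, was in 2 (3.85%), against 2.99%, and in 0 of the 6 that rose. TNAAGGTCA, a motif of estrogen-related receptors, was in 2 (3.85%), against 0.409% of promoters of tested genes and 0.963% of promoters of all genes. Of the 2 members, 1 is NDUFB4. The 52 windows include some of members that were not tested. The NDUFB4 promoter up to the first annotated exon is shown because it carries both kinds of motif, chr3:120596086-120596308, plus strand, with 2 NRF1 matches and then the estrogen-related receptor match in capitals: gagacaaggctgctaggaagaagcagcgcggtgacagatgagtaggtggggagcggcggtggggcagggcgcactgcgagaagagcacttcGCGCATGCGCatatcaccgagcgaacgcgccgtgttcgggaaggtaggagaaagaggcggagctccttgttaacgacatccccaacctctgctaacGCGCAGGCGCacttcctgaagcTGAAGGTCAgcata

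In complex I, 3 of 29 members rose (10.3%, against 12.8% of all tested genes) and 0 fell (against 12.5%). NDUFB4 (ENST00000184266), an accessory subunit of the membrane arm, had 727, 788 and 658 CPM in shRB 1 to 3, against 528, 550.3 and 543 CPM in shCON 1 to 3. The groups did not overlap, and all shRB libraries were above 650 CPM. The mean was 724 ± 65.1 CPM in shRB and 540.3 ± 11.5 CPM in shCON (SD, n = 3 each), a log2 fold change of 0.42 ± 0.08 (SE; edgeR adjusted p = 0.0015). Since 12 annotated pseudogenes of NDUFB4 could draw reads from it or lend reads to it, its value is uncertain. NDUFB5 (ENST00000259037), another membrane arm subunit, had 174, 167 and 175 CPM in shRB, against 151, 132 and 137 CPM in shCON. Its groups did not overlap, and its log2 fold change was 0.29 ± 0.08 (edgeR adjusted p = 0.012). The call of NDUFB5 ended without shCON 2 and without shCON 3.

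The other complex I subunits stayed close to the control level. Their log2 fold changes lay between −0.09 and 0.18 with SE of 0.07 to 0.10, and 17 of the 26 values were above 0. Closest to passing was NDUFS4, an accessory subunit of the matrix arm, at 73.3 ± 2.46 CPM in shRB and 64.7 ± 1.92 CPM in shCON (SD, n = 3 each; edgeR adjusted p = 0.11). NDUFB6 had the lowest value, −0.09 ± 0.09, with 92.9, 87.9 and 84.8 CPM in shRB and 102.6, 82.9 and 97.1 CPM in shCON, so that its groups overlapped. NDUFS5, second to NDUFB4 in level per length, had 342, 373 and 301 CPM in shRB and 318, 324 and 320.3 CPM in shCON, with overlap (0.08 ± 0.08). The 7 core subunits, which hold the redox centres, had a median of 0.09, and the 22 accessory subunits 0.03.

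Among assembly factors of complex I, which build the complex and are not part of it, the test found 2 of 16 higher (12.5%) and 1 lower (6.25%), against 12.8% and 12.5% of all tested genes (median 0.03). NDUFAF5, which hydroxylates the core subunit NDUFS7, was 18.0 ± 1.30 CPM in shRB and 13.1 ± 0.59 CPM in shCON, a rise of 0.45 ± 0.12 on the log2 scale (edgeR adjusted p = 0.013). NDUFAF4 was 90.9 ± 3.09 CPM in shRB and 116.1 ± 13.1 CPM in shCON, a log2 fold change of −0.35 ± 0.09 (SD, n = 3 each; edgeR adjusted p = 0.011).

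Both catalytic subunits of complex II rose. SDHA (ENST00000264932), the flavoprotein that oxidizes succinate, had 169, 174 and 160.0 CPM in shRB libraries, against 138, 144 and 144 CPM in shCON libraries. The groups did not overlap, and its log2 fold change was 0.24 ± 0.07 (edgeR adjusted p = 0.024). SDHA has 3 annotated pseudogenes, so it may share reads with them. SDHB (ENST00000375499), the iron-sulfur subunit, had 91.5, 90.6 and 91.0 CPM in shRB, against 79.0, 78.0 and 70.5 CPM in shCON. Its shRB libraries were nearly equal and all above shCON, with a log2 fold change of 0.26 ± 0.08 (edgeR adjusted p = 0.026). The membrane anchor SDHD had 111.6, 87.0 and 102.5 CPM in shRB, against 90.1, 77.3 and 88.3 CPM in shCON. Its shRB 2 value lay within the shCON range, and its log2 fold change of 0.24 ± 0.10 did not pass (edgeR adjusted p = 0.096). Its exons overlap those of TIMM8B on the opposite strand and a read-through gene on the same strand, and it has 3 annotated pseudogenes. The 3 members summed to 359 ± 11.4 CPM in shRB and 303 ± 4.16 CPM in shCON (SD, n = 3 each). The calls of SDHA and SDHB both ended without shRB 1, and without any of the 3 shCON libraries, and that of SDHB also without shRB 3.

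In complex III, 3 of 7 members rose (42.9%, against 12.8% of all tested genes) and 1 fell (14.3%, against 12.5%). UQCR10 (ENST00000330029), a small membrane subunit, had 211, 224 and 189.6 CPM in shRB, against 151, 164 and 161 CPM in shCON. Its groups were well apart, with a log2 fold change of 0.39 ± 0.08 (edgeR adjusted p = 0.003). UQCRC1 (ENST00000203407), one of the core proteins on the matrix side, had 438, 523 and 446 CPM in shRB, against 353, 384 and 376 CPM in shCON. All shRB libraries were higher, with shRB 2 the highest, and the log2 fold change was 0.34 ± 0.08 (edgeR adjusted p = 0.0086). CYC1 (ENST00000318911), which encodes cytochrome c1, the haem protein that hands electrons to cytochrome c, had 300.1, 349 and 298 CPM in shRB, against 236, 261 and 261 CPM in shCON. The pattern was like that of UQCRC1, with a log2 fold change of 0.32 ± 0.08 (edgeR adjusted p = 0.011). The calls of UQCRC1 and CYC1 ended without shCON 1.

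UQCRB (ENST00000287022), a subunit near the site where ubiquinone binds, went the other way. It had 291, 279 and 265 CPM in shRB, against 363, 311 and 329.9 CPM in shCON. All shRB libraries were lower, and the log2 fold change was −0.27 ± 0.08 (edgeR adjusted p = 0.022). The deposited row for UQCRB is a transcript of 5575 nt, much longer than those of its partners, its exons overlap AP003465.1 on the opposite strand, and it has 3 annotated pseudogenes, so its value is uncertain. Its call ended with the GC offset, with the length offset, and without shRB 3, shCON 1 or shCON 3. The ratio of UQCRB to UQCRC1, chosen after its values were seen and taken on CPM per kb of transcript, was 0.213 ± 0.023 in shRB and 0.322 ± 0.040 in shCON (SD, n = 3 each). Since UQCRB was lower and UQCRC1 higher in all shRB libraries, the groups could not overlap in this ratio, which is no separate result. UQCRH, the hinge protein, had the highest level per length in the complex, with 417, 487 and 395 CPM in shRB and 383, 441 and 401 CPM in shCON, and its groups overlapped. UQCR11 had 329, 356 and 289 CPM in shRB and 282, 316 and 284 CPM in shCON, also with overlap. The core protein UQCRC2, UQCRH and UQCR11 had log2 fold changes of 0.17 ± 0.07, 0.08 ± 0.09 and 0.14 ± 0.09 and did not pass (edgeR adjusted p = 0.092, 0.52 and 0.24).

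**Figure D3:**
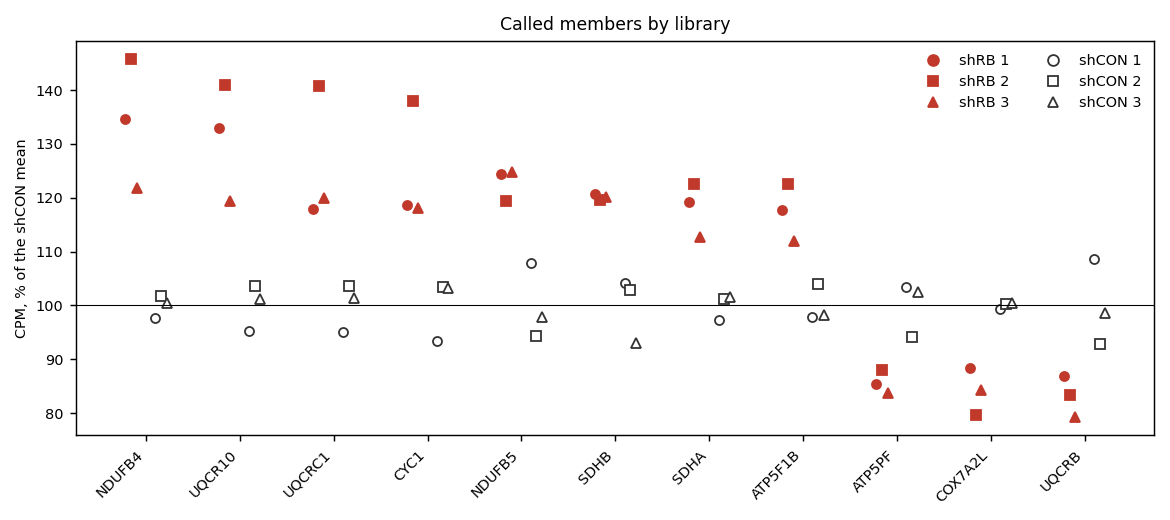
CPM of 11 called members in each library, as a percent of the shCON mean (filled red shRB, open shCON; the shape marks the replicate number). The 8 that rose have all shRB points above all shCON points, and the 3 that fell have all shRB points below.

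In complex IV the ordinary subunits did not pass, and the called members were a rare isoform and a supercomplex factor. COX7B2 (ENST00000355591), an isoform of subunit VIIb known mainly from testis, had 5.64, 5.41 and 6.18 CPM in shRB (62, 51 and 64 counts), against 2.21, 2.01 and 0.98 CPM in shCON (45, 20 and 6 counts). The groups did not overlap, and the log2 fold change of 1.58 ± 0.22 was the largest of the members (edgeR adjusted p = 0.00018), and the gene passed under all 14 alternatives of normalization, filter, tool, offset, block and left-out library. It reached the filter on low counts in 3 shRB libraries and 2 shCON libraries, whereas the other 64 tested members reached it in all 6 libraries. Its level stayed low: 10.6 ± 0.73 CPM per kb in shRB and 3.19 ± 1.22 CPM per kb in shCON, against a median of 239 CPM per kb over the 10 tested complex IV members in shCON. COX7A2L (ENST00000234301), a relative of subunit VIIa that helps join complexes III and IV, had 127.7, 115.1 and 122 CPM in shRB, against 144, 145 and 145 CPM in shCON. The shCON libraries were nearly equal and all above shRB, and the log2 fold change was −0.25 ± 0.07 (edgeR adjusted p = 0.022). Its call ended without shRB 3 and without any of the 3 shCON libraries.

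None of the 7 ubiquitous complex IV subunits in the table passed, though all 7 had log2 fold changes of at least 0.00 (median 0.19). COX4I1, the subunit with the highest level per length in the complex, had 772, 911 and 723 CPM in shRB, against 660.2, 747 and 691 CPM in shCON. Its groups overlapped between shRB 3 and shCON 2 (0.20 ± 0.09, edgeR adjusted p = 0.13), and its log2 fold change was 0.10 without shRB 2 and 0.27 without shRB 3. COX8A had 482, 504 and 421 CPM in shRB, against 384, 425 and 402 CPM in shCON, with shRB 3 inside the shCON range (0.22 ± 0.08, edgeR adjusted p = 0.066). COX6C and NDUFA4 had log2 fold changes of 0.00 ± 0.07 and 0.01 ± 0.08. Of the 14 alternatives, 7 called more members of this complex higher and 7 called the same number higher. With the GC offset 4 rose and with the length offset 6, in each case COX7B2 together with COX8A, COX6B1, COX7A2 and, for length, COX4I1 and COX6A1. In these fits 19.8% and 13.8% of all tested genes rose.

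Of the 7 tissue-restricted or alternative isoforms of complex IV, COX7B2 and NDUFA4L2 had enough counts to be tested, and the other 5 were near or at 0. COX4I2, the lung isoform, and COX6A2, of heart and skeletal muscle, had 0 counts in all 6 libraries, which allows up to 0.097 CPM over the shRB libraries and 0.083 CPM over the shCON libraries (3 counts per group, counting error only). COX6B2 had 2 counts in shRB and 0 in shCON, COX7A1 3 and 1, and COX8C 0 and 2. NDUFA4L2, a hypoxia-induced paralog of NDUFA4, had 4.28, 4.45 and 5.12 CPM in shRB, against 3.68, 4.22 and 5.22 CPM in shCON, and did not pass (0.14 ± 0.19, edgeR adjusted p = 0.61). Its exons overlap those of SHMT2 on the opposite strand.

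Of the assembly factors of complexes II to V, 3 of 26 tested were higher (11.5%, against 12.8% of all tested genes) and 0 lower, against 12.5% (median 0.04). SCO2, a copper chaperone of complex IV, was 73.2 ± 5.30 CPM in shRB and 56.4 ± 1.36 CPM in shCON, a rise of 0.38 ± 0.08 on the log2 scale (SD, n = 3 each; edgeR adjusted p = 0.0052). PET117, also needed for complex IV, was 46.0 ± 2.86 CPM in shRB and 35.4 ± 0.85 CPM in shCON, a rise of 0.38 ± 0.09 (edgeR adjusted p = 0.0082). The other gene that rose, picked with its values in view, was SDHAF1, an assembly factor of complex II, at 0.40 ± 0.11.

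In complex V, ATP5F1B (ENST00000262030), the catalytic beta subunit, had 2436, 2536 and 2318 CPM in shRB, against 2024, 2152 and 2033 CPM in shCON. It had the highest level per length of all members, 1321 ± 59.5 CPM per kb in shRB and 1126 ± 38.8 CPM per kb in shCON. The groups did not overlap, and the log2 fold change was 0.23 ± 0.07 (edgeR adjusted p = 0.035). The call ended without shRB 1 and without any of the 3 shCON libraries. Its partner ATP5F1A, the alpha subunit, had 1504, 1609 and 1479 CPM in shRB, against 1360.2, 1364 and 1365 CPM in shCON. The groups were apart, but the change of 0.17 ± 0.07 did not pass (edgeR adjusted p = 0.099).

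ATP5PF (ENST00000400094), a subunit of the peripheral stalk also called coupling factor 6, had 167, 172 and 164 CPM in shRB, against 202, 184 and 200.4 CPM in shCON. All shRB libraries were lower, and the log2 fold change was −0.22 ± 0.07 (edgeR adjusted p = 0.036). ATP5PO, a stalk subunit also called OSCP, had 217, 244 and 217 CPM in shRB, against 254, 256 and 252 CPM in shCON. Its groups did not overlap, and its change of −0.17 ± 0.07 did not pass (edgeR adjusted p = 0.10). It was called lower without shRB 2, with the GC or length offset, and with the replicate number as a block, alone or with the GC offset. Both genes lie on chromosome 21, where 0 of 123 tested genes rose and 78 fell (63.4%), with a median of −0.38. Both values are nearer 0 than that median. The exons of ATP5PF overlap those of GABPA on the opposite strand, which itself was 48.4 ± 4.62 CPM in shRB and 61.4 ± 5.43 CPM in shCON (−0.35 ± 0.10, edgeR adjusted p = 0.019). The call of ATP5PF ended with the GC offset, with the length offset, and without shRB 1, shRB 3, shCON 1 or shCON 3.

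Of the 16 tested complex V members, 14 did not pass. ATP5S had the lowest value, −0.33 ± 0.13, with 17.8, 17.7 and 14.9 CPM in shRB and 24.1, 19.07 and 19.10 CPM in shCON (edgeR adjusted p = 0.081). Without shCON 1 its value was −0.18, and that of ATP5PF, at −0.20, was lower. ATP5S was called lower without the low-count filter, without shRB 2, and with the GC or length offset. The same held with the replicate number as a block, alone or with the GC offset. ATP5IF1, which inhibits the enzyme when it runs in reverse, had 298, 344 and 272 CPM in shRB, against 329.8, 354 and 347 CPM in shCON, and its groups overlapped (−0.17 ± 0.09, edgeR adjusted p = 0.17). The ratio of ATP5IF1 to ATP5F1B in CPM per kb, chosen after its values were seen, was 0.124 ± 0.009 in shRB and 0.164 ± 0.004 in shCON (SD, n = 3 each), with no overlap. ATP5F1B alone was already higher in all shRB libraries, so the ratio is no separate result. The genes ATP5MC1 and ATP5MC2 encode the same mature c-ring protein. ATP5MC1 made up 0.281 ± 0.007 of their sum per kb in shRB and 0.290 ± 0.010 in shCON, and neither gene passed (edgeR adjusted p = 0.41 and 0.14). ATP5MC1 had 132, 159.6 and 121 CPM in shRB and 113, 134 and 132 CPM in shCON, and ATP5MC2 had 499.5, 576 and 469 CPM in shRB and 421, 458 and 483 CPM in shCON, both with overlap. The other c-ring gene, ATP5MC3, was not analysed here. ATP5MGL had 16 counts in shRB and 18 in shCON and was not tested.

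**Figure D4:**
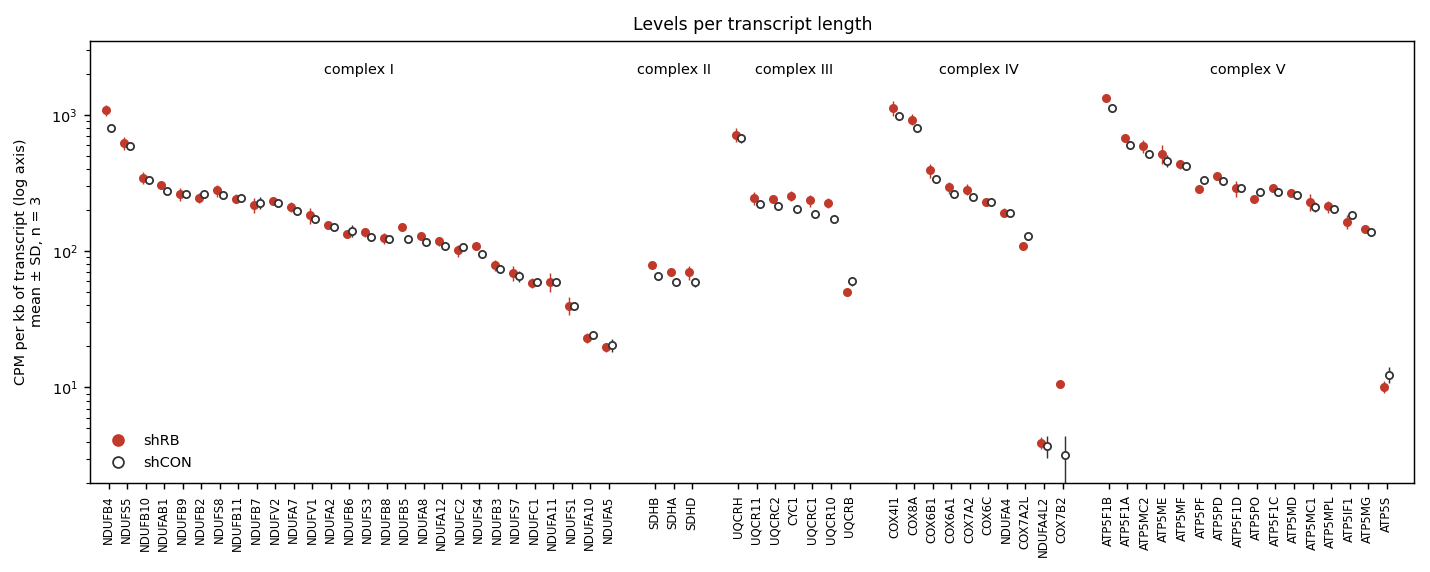
Level of 64 tested members in CPM per kb of transcript (log axis; mean ± SD, n = 3; filled red shRB, open shCON), ordered by the shCON level within each complex. Values in shCON run from 3.19 to 1126 CPM per kb, and COX7B2, NDUFA4L2 and ATP5S lie far below their partners.

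Levels per length varied widely within a complex, although each structural subunit is present in a fixed number of copies in the assembled enzyme. In complex I they ran in shCON from 20.3 CPM per kb (NDUFA5, whose deposited row is a transcript of 5608 nt) to 805 CPM per kb (NDUFB4), with NDUFS5 next at 589 CPM per kb. The 3 complex II members were close to each other, at 69.8 to 79.0 CPM per kb in shRB and 59.2 to 65.8 CPM per kb in shCON. Those of complex III ran in shCON from 60.0 (UQCRB) to 676 CPM per kb (UQCRH). Apart from UQCRB and UQCRH, the members of complex III lay between 173 and 222 CPM per kb in shCON. These levels rest on the deposited transcript of each gene, and reads of other transcripts of the gene are counted against its length or not at all.

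Several called members lay in chromosomal stretches whose other genes moved the same way. Over the 20 nearest tested genes (10 on each side, members left out) the median log2 fold change was 0.33 around NDUFB4, 0.29 around UQCRC1, 0.20 around UQCR10 and 0.18 around NDUFB5. It was −0.45 around ATP5PF and −0.17 around COX7A2L. Across the 65 members, which share libraries, the log2 fold change had a Spearman correlation of 0.49 with the median of the neighbours. The 3 members on chromosome 3, NDUFB4, NDUFB5 and UQCRC1, all rose, on a chromosome where 28.4% of 663 tested genes rose and the median was 0.15. Other called members moved apart from their neighbours: the neighbour median was 0.03 around CYC1 (member 0.32), −0.09 over the 10 genes around SDHA (0.24), −0.04 around UQCRB (−0.27) and −0.11 around COX7B2 (1.58). Each of the 10 members that rose lay above the median of its neighbours, UQCRC1 by 0.05. They were picked for a rise in these same data, so this is no separate result. The part of these stretches in the members' changes was not tested.

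**Figure D5:**
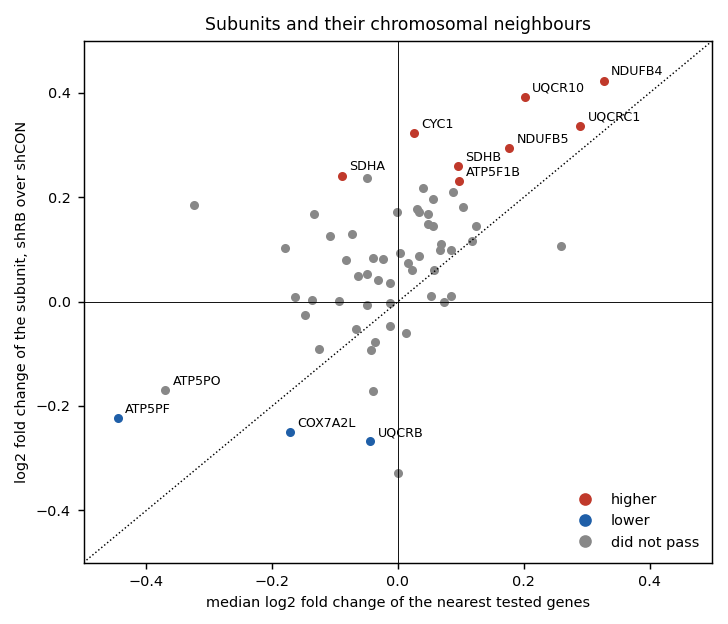
Log2 fold change of 63 tested members, without COX7B2, against the median of its nearest tested genes (20 for most members), with the called members among them and ATP5PO named. The dotted line marks equal values. UQCRC1 lies close to it, CYC1 and SDHA above it, and ATP5PF and ATP5PO above it at the far left.

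Pathways that feed the chain held changes in both directions. Of 17 tested electron carriers, ubiquinone synthesis genes and other quinone reductases, 5 were higher in shRB (29.4%, against 12.8% of all tested genes) and 2 lower (11.8%, against 12.5%), with a median of 0.08. COQ9, a lipid-binding protein of ubiquinone synthesis, was 130.2 ± 2.13 CPM in shRB and 94.5 ± 0.68 CPM in shCON, a rise of 0.46 ± 0.07 (edgeR adjusted p = 0.00034). COQ8A, an atypical kinase of the same pathway, was 118.5 ± 8.37 CPM in shRB and 86.7 ± 2.39 CPM in shCON, a rise of 0.45 ± 0.08 (SD, n = 3 each; edgeR adjusted p = 0.00099). The 2 that were lower, picked with their values in view, were COQ4, of the same pathway, and ETFB. Their log2 fold changes were −0.36 ± 0.08 and −0.33 ± 0.10 (edgeR adjusted p = 0.0044 and 0.026). In the TCA cycle and pyruvate dehydrogenase list, 4 of 19 tested genes were higher (21.1%, against 12.8% of all tested genes) and 1 lower (5.26%, against 12.5%), with a median of 0.13. Fumarase FH, which uses the product of complex II, was 291 ± 0.90 CPM in shRB and 231 ± 11.6 CPM in shCON (0.33 ± 0.07, edgeR adjusted p = 0.0036). The gene that was lower, picked with its values in view, was PC (−0.35 ± 0.10, edgeR adjusted p = 0.023).

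Of 16 tested regulators of mitochondrial biogenesis, 6 were higher in shRB (37.5%, against 12.8% of all tested genes) and 1 lower (6.25%, against 12.5%), with a median of 0.19. ESRRA, a nuclear receptor that drives respiratory chain genes, was 162 ± 9.07 CPM in shRB and 109.5 ± 4.67 CPM in shCON, with 163, 171 and 153 CPM in shRB and 107.6, 115 and 106 CPM in shCON. The groups were far apart, and the log2 fold change was 0.57 ± 0.08 (edgeR adjusted p = 0.00012). PPRC1, a coactivator of the PGC-1 family, had 57.6, 66.1 and 58.3 CPM in shRB and 43.0, 44.5 and 41.5 CPM in shCON (0.50 ± 0.09, edgeR adjusted p = 0.0014). Picked with their values in view, the coactivator PPARGC1B rose by 0.62 ± 0.17 on the log2 scale, and the gene that fell was GABPA, on chromosome 21. NRF1 itself was 16.7 ± 1.24 CPM in shRB and 16.9 ± 2.50 CPM in shCON (SD, n = 3 each; edgeR adjusted p = 0.95). PPARGC1A, the best known member of the PGC-1 family, had 8 counts in shRB and 6 in shCON and was not tested.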

How the data were processed

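The authors deposited raw counts, 1 whole number per Ensembl transcript ID and library, with no normalization, in 1 table of the whole series. The submitters' processing notes name STAR, HOMER, edgeR and the build hg19. Which annotation and strand setting were used was not given in the sources used here. Overlapping genes, antisense genes and pseudogenes may therefore share reads, and 34 of the 65 tested members have an annotated pseudogene. IDs were named with GENCODE release 29 (22182 of 22279 matched; the 97 unmatched IDs held 0.38% of counts), which describes another build and served for names, gene order, length, GC content and exon overlap.

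edgeR 4.0.16 (R 4.3.3) was run on all rows: filterByExpr (minimum count 10, minimum total 15), TMM, quasi-likelihood F test with group as the only term, Benjamini-Hochberg adjustment, threshold 0.05. The SE is the log2 fold change divided by the square root of F. Alternatives were DESeq2 1.42.0, other normalizations, no filter, the replicate block, GC and length offsets (lowess, span 0.3) and each library left out. The procedure was tested on simulated data. Named genes mainly follow a rule: called members, the 2 with the highest level per length, the largest rise and fall of each complex, isoforms, and the 2 smallest p of each other list. Genes named outside this rule include ATP5PO, ATP5IF1, NRF1 and PPARGC1A. Members and lists were chosen with earlier results of these data known. Individual results of 2 named genes are not reported here, though counts, sums and medians include them.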

Additional observations from a re-analysis of the deposited data

How the results depend on the processing

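All 13 called members passed again with RLE size factors, with upper-quartile factors, without the low-count filter and with DESeq2. The direction of each called member was the same under each of the 14 alternatives. Without the filter 12 members rose (17.4%, against 9.89% of all tested genes), 2 of them of complex IV, and 4 fell (5.8%, against 11.2%). With the GC offset 17 members rose (4 of complex IV and 2 of complex V), and 2314 genes rose and 2255 fell over the table. With the length offset 16 members rose (6 of complex IV and 2 of complex V), and 1612 genes rose and 1534 fell. The labels give both groups replicate numbers 1 to 3. Same-numbered libraries had correlations of 0.235, 0.352 and 0 between their deviations from the group means. For shRB 1 and shRB 2 the same-numbered library gave the highest value, but shRB 3 correlated best with shCON 1 (0.273). Whether libraries were paired by number was not tested. With the replicate number as a block 21 members rose (32.3%, against 18.8% of all tested genes) and 6 fell (9.23%, against 19.6%). In that fit 6 members of complex IV and 4 of complex V rose, and 2202 genes rose and 2294 fell over the table. With the replicate block and the GC offset together 21 members rose (32.3%, against 21.1% of all tested genes) and 6 fell (9.23%, against 20.6%). In that fit 5 members of complex I, 5 of complex IV and 4 of complex V rose, and 2475 genes rose and 2411 fell over the table. The cause of these differences was not tested.

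With 1 library left out, 4 to 14 members rose and 0 to 6 fell. The number that rose was lowest without shCON 1 (6.15%, against 7.31% of all tested genes), where NDUFB4, NDUFB5, UQCR10 and COX7B2 were called. It was highest without shRB 2 (21.5%, against 17.5%). Members that fell numbered 0 without shRB 3, without shCON 1 and without shCON 3, where 9.95%, 7.73% and 8.16% of all tested genes fell. By complex, 1 to 4 rose in complex I, 0 to 3 in complex II, 1 to 4 in complex III, 1 to 3 in complex IV and 0 to 1 in complex V. Over all genes 863 to 2074 rose and 912 to 1956 fell. The median over members ranged from 0.057 to 0.157. NDUFA4L2 was −0.01 without shCON 1, and 0.06 to 0.25 without each other library. An alternative chosen after seeing the data left out shRB 2 and shCON 2. In it 16 members rose (24.6%, against 18.4% of all tested genes) and 8 fell (12.3%, against 18.4%), while 2169 genes rose and 2178 fell over the table.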
